A study of Mus musculus with 4 samples.

Results

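An Ldha knockout library (Ldha_KO) was compared directly with an Ldhb knockout library (Ldhb_KO), both of mouse embryonic stem cells. Genes entered the comparison with an FPKM value (fragments scaled to transcript length and library size) of at least 1 in either knockout library, which kept 12913 of 25170 genes. The study's 4 libraries, 1 per group, were unedited E14 cells (WT), cells labelled SO, which the series text describes as an inhibitor treatment, and both knockouts. Every group was cultured on gelatin in DMEM with fetal bovine serum and LIF, and poly(A) RNA was sequenced. The sources used here do not give the SO dose, the kind of Ldha and Ldhb lesion, or whether a knockout line is a single clone. With 1 library a side there was no replicate check, so every difference below compares libraries and describes size only.

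Lactate dehydrogenase interconverts pyruvate and lactate with NADH and NAD+. The enzyme is a tetramer of A subunits, encoded by Ldha, and B subunits, encoded by Ldhb. A-rich forms are associated with lactate production in glycolytic cells, and B-rich forms with lactate use in oxidative tissues. Lactate is also a source of lysine lactylation, a protein modification that the study follows on the histone deacetylase Hdac1 in relation to the 2-cell state. That state is the transcriptional programme of the 2-cell embryo, which a small share of cultured embryonic stem cells enters from time to time.

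The deposited values summed to between 471595 and 526316 per library, and the 2 knockout libraries lay within that range at 477538 for Ldha_KO and 484528 for Ldhb_KO. The value worth 1 fragment was 1.06 times as large in Ldha_KO as in Ldhb_KO, read from 1441 genes below 0.2 in both. A fragment on a transcript of 1 kb was worth about 0.086 in Ldha_KO and 0.078 in Ldhb_KO, a rough figure from another annotation, so values well below 1 rest on few fragments. Embryonic stem cell markers were abundant in both knockouts. Pou5f1 stood at 972 in Ldha_KO and 1084 in Ldhb_KO. Dppa5a, chosen as a marker of these cells, stood at 2479.7 and 2471. Of 15 fibroblast and feeder markers, 5 reached 1 and none passed 2-fold. Thy1 was at 36.9 in Ldha_KO and 46.2 in Ldhb_KO, whereas Dcn, Lum and Fap were listed at 0 in both. Of 10 blood and endothelial markers, 4 reached 1 and none passed 2-fold, with Pecam1 at 41.3 in Ldha_KO and 35.9 in Ldhb_KO.

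The targeted genes were at the opposite ends of the comparison: Ldhb had the highest and Ldha the lowest difference of all 12913 genes. Ldha was at 154 in Ldha_KO, 2237 in Ldhb_KO, 1774 in WT and 1711 in SO. Ldhb was at 158 in Ldha_KO, 5.74 in Ldhb_KO, 76.5 in WT and 139 in SO. Each transcript was thus far lower in the library labelled with its own knockout than in the other 3, and each was highest of the 4 in the opposite knockout. The difference, log2(FPKM + 1) in Ldha_KO minus that in Ldhb_KO, was -3.85 for Ldha and 4.56 for Ldhb. Each knockout retained a similar share of the WT level of its target, 8.67% of Ldha and 7.50% of Ldhb. Processed pseudogenes of Ldha could take or lend reads, so the remaining Ldha level is uncertain.

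Ldha was 23.2 times as abundant as Ldhb in WT, so the knockouts left very unequal amounts of subunit transcript. Ldha and Ldhb together came to 311 in Ldha_KO and 2243 in Ldhb_KO, against 1851 in WT and 1850.4 in SO. Transcripts of the other lactate genes differed much less. Ldhc, the testis subunit, was at 4.60 in Ldha_KO and 3.11 in Ldhb_KO, above 1.24 in WT and 2.58 in SO. Ldhd, which acts on D-lactate, was at 0.990 and 1.18 in the knockouts. Among the monocarboxylate transporters, Slc16a1 was at 81.4 in Ldha_KO and 62.1 in Ldhb_KO, and Slc16a3 at 112 and 132. Their chaperones Bsg (475 and 547) and Emb (56.6 and 71.4) stayed within 2-fold as well. None of the 10 nearest kept neighbours of Ldha, with differences of -0.41 to 0.80, or of Ldhb, with -0.07 to 0.65, passed 2-fold.

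A gene was called when its difference reached 1 in either direction, which is 2-fold on the log2(FPKM + 1) scale. By this rule 219 genes (1.7%) were higher in Ldha_KO and 202 (1.56%) were lower, so 3.26% were called. These percentages are the background against which the gene lists below are read. At 3.26%, a list as short as those below holds few calls or none, so 0 calls does not set it apart. The median over all kept genes was -0.02, and the 5th and 95th percentiles were -0.72 and 0.66. With a pseudocount of 0.1 in place of 1, the split of calls turned from 52.0% higher to 40.8% higher, with 389 higher and 564 lower. The genes nearest the threshold were Grm2 (1.002) just inside and 1700124L16Rik (0.999) just outside on the higher side, and Cth just inside and Tha1 (-0.996) just outside on the lower side.

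**Figure D1:**
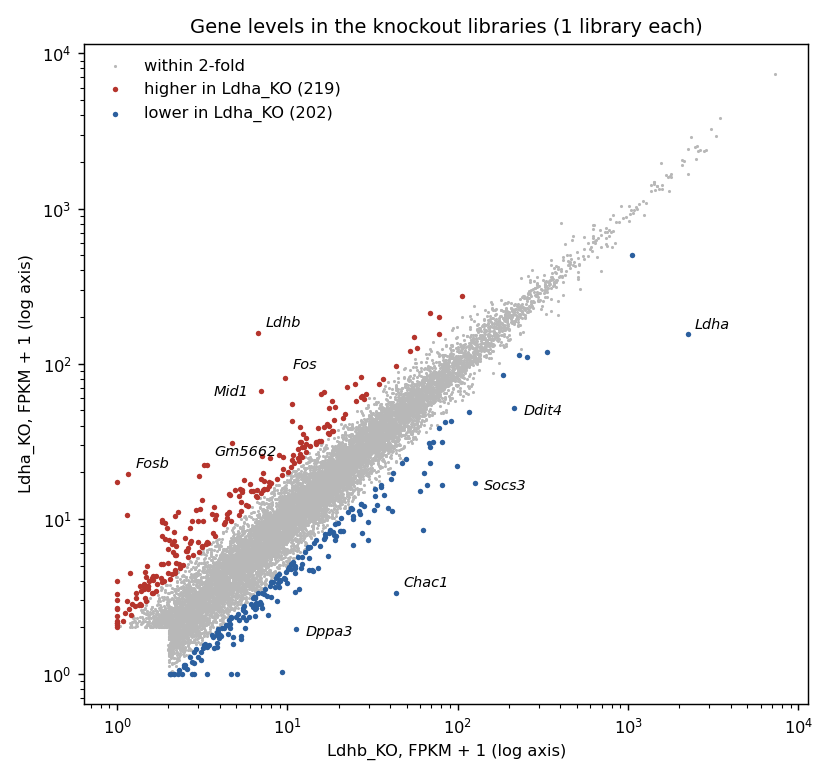
Level of each of the 12913 kept genes in Ldhb_KO (horizontal) and Ldha_KO (vertical), both as FPKM + 1 on log axes, 1 point per gene. The 219 genes higher in Ldha_KO lie above the diagonal cloud and the 202 lower genes below it, with Ldhb (158 and 5.74) and Ldha (154 and 2237) farthest out.

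The WT library, which takes no part in the contrast, was used to describe on which side each difference sat. For 143 of the 219 higher genes (65.3%), WT lay on the Ldhb_KO side of the midpoint, so Ldha_KO was the library farther from WT. Among 5951 kept genes with a difference above 0 but within 2-fold, the share was 39.7%. For the 202 lower genes, WT lay on the Ldha_KO side in 132 (65.3%), beside 52.2% of 6541 uncalled genes with a difference below 0. In both directions WT was thus more often the nearer neighbour of the knockout with the lower level, Ldhb_KO for the higher genes and Ldha_KO for the lower genes. SO lay on the Ldha_KO side in 117 of the higher genes (53.4%) and in 143 of the lower genes (70.8%), beside 56.5% and 57.1% of the uncalled genes.

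The difference moved with base composition. Over 5 equal groups of genes ordered by GC content of the transcript, from lowest to highest, the median was 0.11, 0.03, -0.01, -0.09 and -0.16. Higher genes numbered 72, 44, 39, 34 and 27 in the same order, and lower genes 14, 24, 37, 51 and 72. Against WT, the medians ran from -0.02 to -0.08 for Ldha_KO and from -0.14 to 0.07 for Ldhb_KO, so the slope was wider in Ldhb_KO. For the main lists below a second median is given, after each gene was centred on the median of genes of like GC content (10 equal groups), an alternative chosen after seeing the data.

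**Figure D2:**
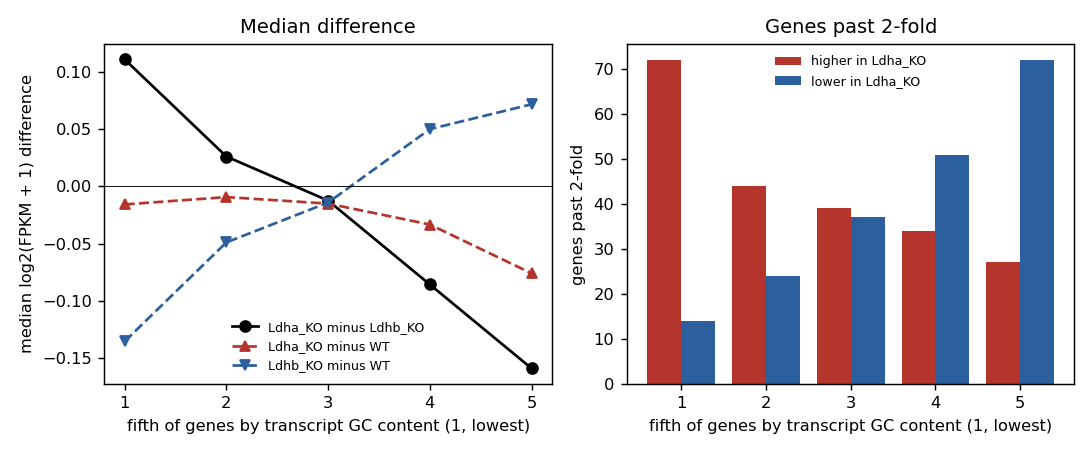
Left, median log2(FPKM + 1) difference over 5 equal groups of genes ordered by transcript GC content, for Ldha_KO minus Ldhb_KO and for each knockout minus WT (both share the WT library); right, the number of genes past 2-fold in each group. The median between the knockouts falls from 0.11 to -0.16 from low to high GC, and the higher genes fall from 72 to 27 while the lower genes go from 14 to 72.

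Genes of the 2-cell-like state were higher in Ldha_KO than in Ldhb_KO. Of 44 members found, 27 were kept: 17 were called higher and 0 lower, against 1.7% and 1.56% of all genes. Of the kept members 12 had passed the filter only through Ldha_KO. Among the 15 at 1 or more in both knockouts, 10 were higher and 0 lower, with a median of 1.86. The median was 1.48 over the kept members, 1.95 with a filter of 5, and 1.56 after centring on GC content. With no filter it was 0.87, over the found members above 0 in either knockout. In bulk RNA, fewer 2-cell-like cells and less of these transcripts in each such cell cannot be told apart.

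Within this group the largest differences belonged to the Eif1a-like genes of the Gm2016 family. Gm2016 was at 21.1 in Ldha_KO, 2.25 in Ldhb_KO, 2.91 in WT and 25.5 in SO. Gm5662 was at 21.4, 2.37, 2.21 and 29.1 in the same order of libraries, and Gm8300 at 17.8, 2.02, 2.77 and 22.0. Ldhb_KO stood near WT for all 3 genes, and Ldha_KO stood near SO. Zscan4c, a member of the family linked to telomere maintenance in embryonic stem cells, was at 10.6 in Ldha_KO and 2.06 in Ldhb_KO, beside 2.03 in WT and 16.9 in SO. Zscan4d was at 10.5, 1.92, 1.72 and 14.5 in Ldha_KO, Ldhb_KO, WT and SO. The remaining Zscan4 members had the same order of knockouts, with Zscan4a at 6.35 and 1.02 in the knockouts, Zscan4f at 4.10 and 0.856, and Zscan4b at 1.60 and 0.379, a difference of 0.92 that stayed within 2-fold.

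Usp17lb and Usp17le, deubiquitinases of the Usp17-like family, were at 8.83 and 6.71 in Ldha_KO and at 0.829 and 0.826 in Ldhb_KO. Tcstv3 was at 7.23 in Ldha_KO, 1.16 in Ldhb_KO, 1.45 in WT and 7.52 in SO. Gm21761 was the most abundant called member, at 41.7 and 9.60 in the knockouts, and Eif4a3l1, an Eif4a3-like gene, was at 9.64 and 2.80. In each of these genes Ldha_KO and SO were above Ldhb_KO and WT. The filter left out Dux, the transcription factor that activates the programme, at 0.254 in Ldha_KO and listed at 0 in Ldhb_KO, as well as Zfp352 (0.597 and 0.106) and Tcstv1 (0.369 and 0.116). Obox6 was the only kept member with a difference below 0, at 1.53 in Ldha_KO and 3.10 in Ldhb_KO. Of 28 known regulators of the state kept, 0 were called, with a median of 0.11. With 3.26% of all genes called, 0 calls in a list this short does not set it apart. Ythdc1, an m6A reader, was at 58.7 in Ldha_KO and 31.4 in Ldhb_KO, the largest difference among these regulators (0.88). Hdac1 itself was at 42.0 in Ldha_KO, 44.7 in Ldhb_KO, 56.1 in WT and 49.4 in SO. Of 20 kept members of its complexes 0 passed 2-fold, which is likewise near the share over all genes.

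The promoters of Zscan4c and Zscan4d are shown as an example of how alike the copies of such a family are. Reads can be shared among the genes of the Zscan4, Usp17-like and Gm2016 families, so the value of each member is uncertain. The 250 bases before each start, from RefSeq on build GRCm38.p6 (chr7:11005495-11005744, plus strand and chr7:11166149-11166398, minus strand), were identical at 232 of 239 aligned bases (97.1%). Capitals mark bases that were not identical in the alignment, including the unaligned ends.
Zscan4c: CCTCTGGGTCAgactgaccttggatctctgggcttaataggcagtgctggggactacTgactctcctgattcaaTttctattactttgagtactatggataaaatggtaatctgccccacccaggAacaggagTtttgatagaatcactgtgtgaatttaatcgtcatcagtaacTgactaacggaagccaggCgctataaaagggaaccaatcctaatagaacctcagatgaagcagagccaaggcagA
Zscan4d: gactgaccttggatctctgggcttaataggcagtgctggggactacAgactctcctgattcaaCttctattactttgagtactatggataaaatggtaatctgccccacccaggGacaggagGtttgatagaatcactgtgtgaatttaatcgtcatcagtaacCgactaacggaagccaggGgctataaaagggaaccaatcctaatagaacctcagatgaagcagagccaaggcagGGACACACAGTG

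Targets of Atf4, the factor that turns on amino acid synthesis and transport when amino acids run short or the integrated stress response is active, were lower in Ldha_KO than in Ldhb_KO. Of 36 kept members, 11 were called lower and 1 higher, against 1.56% and 1.7% of all genes, and 33 had a difference below 0. The median was -0.60, and -0.55 after centring on GC content. Chac1, a glutathione-degrading enzyme, was at 2.34 in Ldha_KO, 42.4 in Ldhb_KO, 17.1 in WT and 4.07 in SO. Its difference of -3.70 was the largest in this direction after Ldha. Ddit3, the stress factor CHOP, was at 21.0 in Ldha_KO, 98.3 in Ldhb_KO, 15.6 in WT and 8.90 in SO. Trib3, a pseudokinase that binds Atf4 and Akt, was at 10.3, 39.9, 21.0 and 15.3 in the same order. Nupr1, a stress-induced chromatin factor, was at 18.9 in Ldha_KO, 62.6 in Ldhb_KO, 15.7 in WT and 5.91 in SO. In all 4 of these genes Ldhb_KO was the highest library; WT lay near Ldha_KO for Ddit3 and Nupr1, and lay between the knockouts for Chac1 and Trib3.

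The amino acid enzymes on the list went the same way by smaller amounts. The proline synthesis genes Pycr1 (15.1 in Ldha_KO and 34.3 in Ldhb_KO) and Aldh18a1 (23.2 and 48.7) were called, as were the transsulfuration genes Cbs (10.6 and 23.0) and Cth (41.1 and 83.3). Fgf21, a secreted hormone, was listed at 0 in Ldha_KO and at 1.76 in Ldhb_KO, and the stress cytokine Gdf15 was at 6.70 and 15.6. Aldh18a1 (-0.96) and Gdf15 (-0.94) no longer reached 2-fold after centring on GC content, and Cth (-0.98) did not after rescaling to equal summed values. Gpt2, the mitochondrial alanine aminotransferase, was at 10.8 in Ldha_KO, 37.8 in Ldhb_KO, 18.0 in WT and 11.7 in SO. Atf3 was the only called member on the other side, at 14.1 in Ldha_KO, 5.14 in Ldhb_KO, 2.47 in WT and 2.77 in SO. Atf4 transcript itself, at 218 and 264, Asns, asparagine synthetase, at 359 and 409, and Slc38a2, a neutral amino acid transporter, at 120.2 and 68.5 were within 2-fold.

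Promoters of Chac1, Nupr1 and Atf3 are printed to set called members of opposite direction side by side. The string TGATGNAA, on either strand, stands for the composite site bound by Atf4 with C/EBP factors. It occurred in 3.97% of all 32851 RefSeq promoters of 300 bases (250 before the start and 50 after it, build GRCm38.p6) and in at least 1 promoter of 4.51% of 27025 genes. Of 30 members with a promoter entry, 10 held it, and of 10 called lower with an entry, 5 did: Chac1, Nupr1, Trib3, Pycr1 and Fgf21. Atf3, the member that was higher, held it as well, so the string was present on both sides of the comparison. The match began 193 bases before the start in Chac1 and 110 bases before it in Nupr1 and in Atf3. Shown are the 250 bases before the start of Chac1 (chr2:119350992-119351241, plus strand), Nupr1 (chr7:126625471-126625720, minus strand) and Atf3 (chr1:191183334-191183583, minus strand), with the match in capitals.
Chac1: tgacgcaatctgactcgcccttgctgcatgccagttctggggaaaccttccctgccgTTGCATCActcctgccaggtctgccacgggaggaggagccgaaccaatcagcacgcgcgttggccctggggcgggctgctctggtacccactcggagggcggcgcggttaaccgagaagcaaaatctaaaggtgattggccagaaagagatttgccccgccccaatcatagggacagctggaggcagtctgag
Nupr1: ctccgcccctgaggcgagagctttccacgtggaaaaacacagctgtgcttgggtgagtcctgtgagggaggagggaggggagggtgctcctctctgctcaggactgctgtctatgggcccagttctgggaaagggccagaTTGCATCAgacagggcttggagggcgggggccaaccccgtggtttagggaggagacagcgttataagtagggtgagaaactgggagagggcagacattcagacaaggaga
Atf3: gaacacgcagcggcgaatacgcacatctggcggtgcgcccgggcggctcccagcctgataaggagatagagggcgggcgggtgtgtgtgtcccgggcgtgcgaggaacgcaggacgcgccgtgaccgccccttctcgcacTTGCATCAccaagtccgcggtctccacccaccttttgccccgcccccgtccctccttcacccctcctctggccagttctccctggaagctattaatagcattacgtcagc

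Hypoxia-inducible genes were also lower in Ldha_KO than in Ldhb_KO. Of 24 kept members, 4 were called lower and 0 higher, and 23 had a difference below 0, with a median of -0.58 before and after centring on GC content. Ddit4, an inhibitor of mTORC1 that the Atf4 list also holds, was at 50.9 in Ldha_KO, 213 in Ldhb_KO, 28.1 in WT and 114 in SO. Bnip3, a mitophagy receptor, was at 109.5, 252, 75.9 and 116 in the same order. Egln3, a prolyl hydroxylase that acts on HIF subunits, was at 11.4 in Ldha_KO, 32.5 in Ldhb_KO, 9.49 in WT and 19.02 in SO. For these 3 genes WT was the lowest library and Ldhb_KO the highest, with Ldha_KO between them. Car12, a carbonic anhydrase, was at 2.85 and 7.75 in the knockouts and 0.454 in WT. Vegfa (20.0 and 37.8), Ndrg1 (20.2 and 39.0) and Adm (4.17 and 9.25) had differences of -0.88, -0.91 and -0.99. Kdm3a, a histone demethylase, was the only member above 0, at 93.5 in Ldha_KO and 63.4 in Ldhb_KO, and P4ha1, a collagen prolyl hydroxylase subunit, was nearly level at 41.5 and 45.4.

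Bnip3 and Egln3 promoters are printed for the string ACGTG, the core of the element that HIF binds, which was counted on both strands. It is short and common: 19.6% of all promoters and 21.8% of genes held it. Of 17 hypoxia members with a promoter entry, 13 held it, as did 3 of 4 called lower (Bnip3, Egln3 and Ddit4). In Bnip3 the string lies on both strands in an overlapping pair that begins 108 and 107 bases before the start, and in Egln3 it begins 229 bases before it. The 250 bases before the start of Bnip3 (chr7:138909507-138909756, minus strand) and Egln3 (chr12:54203875-54204124, minus strand) are given with the match in capitals.
Bnip3: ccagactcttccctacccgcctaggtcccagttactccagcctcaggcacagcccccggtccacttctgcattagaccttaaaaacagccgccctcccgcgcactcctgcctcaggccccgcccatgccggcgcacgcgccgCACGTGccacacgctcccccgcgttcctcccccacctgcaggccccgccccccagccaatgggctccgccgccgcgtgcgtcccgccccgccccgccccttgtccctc
Egln3: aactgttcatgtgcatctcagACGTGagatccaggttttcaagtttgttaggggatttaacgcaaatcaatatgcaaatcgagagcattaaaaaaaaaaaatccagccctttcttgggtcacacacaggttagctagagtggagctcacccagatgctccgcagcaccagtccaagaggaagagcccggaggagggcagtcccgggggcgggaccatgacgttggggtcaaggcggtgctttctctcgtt

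Glycolytic genes shared the direction at a smaller size. Of 20 kept, 3 were called lower and 0 higher, 17 had a difference below 0, and the median was -0.32, or -0.20 after centring on GC content. Hk2, the inducible hexokinase, was at 30.3 in Ldha_KO, 70.3 in Ldhb_KO, 48.7 in WT and 41.4 in SO. Aldoc, a brain-type aldolase, was at 9.40, 23.3, 6.41 and 15.1 in the same order. Eno2, an enolase, was at 3.27 in Ldha_KO and 7.64 in Ldhb_KO, and its difference of -1.02 fell below 2-fold under rescaling to equal summed values (-0.997) and after centring on GC content (-0.92). The abundant isoforms moved less: Eno1 was at 561 and 798, Tpi1 at 352 and 504, Pfkp at 126 and 185, and the glucose transporter Slc2a1 at 393 and 690.1. Of oxidative genes, 0 of 20 TCA cycle genes and 0 of 30 respiratory chain genes were called, with medians of -0.03 and -0.04. The succinate dehydrogenase genes are in both lists. Beside 3.26% of all genes called, 0 calls in lists this short does not set them apart. In the list on pyruvate fate 1 of 23 was called, Gpt2, and the pyruvate dehydrogenase kinase Pdk1 was at 35.7 in Ldha_KO and 56.2 in Ldhb_KO.

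**Figure D3:**
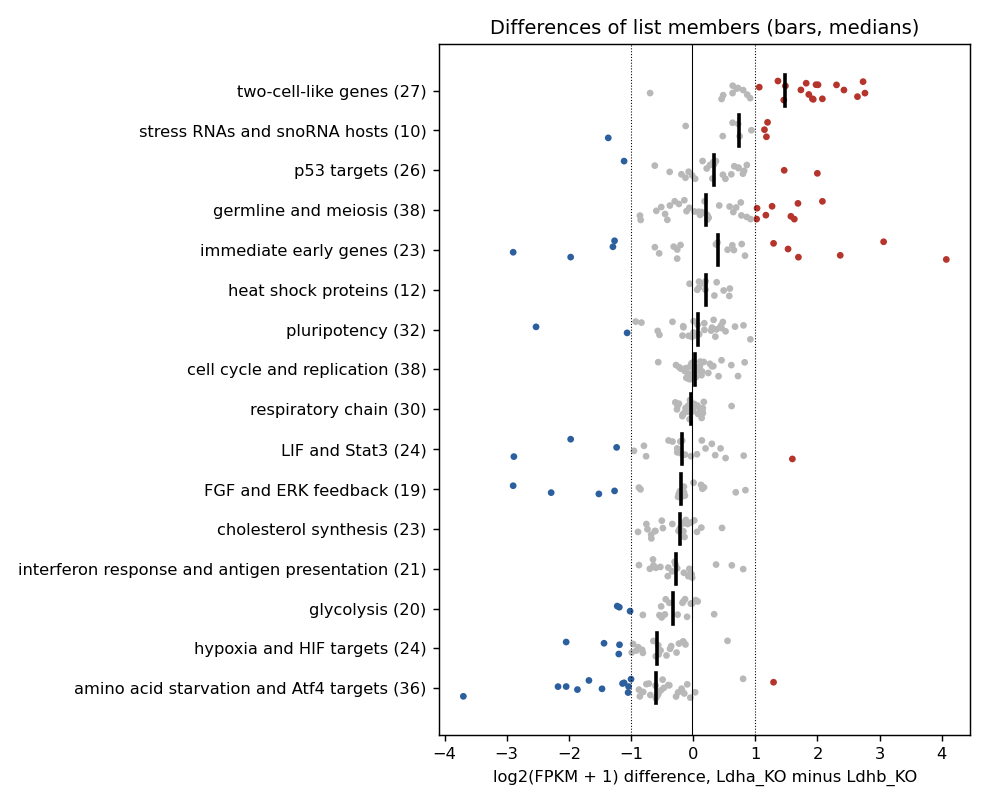
Log2(FPKM + 1) difference, Ldha_KO minus Ldhb_KO, of each kept member (point) of 16 gene lists, with the number kept in brackets; black bars are list medians, dotted lines mark 2-fold, the thin line is the median of all kept genes and red and blue points are called higher and lower. Two-cell-like genes lie farthest to the right (median 1.48), and hypoxia (-0.58) and Atf4 targets (-0.60) farthest to the left.

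Immediate early genes, which respond within minutes to growth factors and stress, were called in both directions: of 23 kept, 6 were higher and 4 lower, with a median of 0.39 (0.37 after centring on GC content). Fosb was at 18.5 in Ldha_KO, 0.160 in Ldhb_KO, 0.190 in WT and 0.423 in SO. Fos, its close paralogue in the AP-1 family, was at 80.2, 8.70, 4.298 and 8.52 in the same order. Jun was at 16.9 in Ldha_KO, 4.55 in Ldhb_KO, 2.08 in WT and 3.63 in SO. For all 3, Ldha_KO stood above every other library. The Yap-responsive matrix genes Ccn2 (54.1 in Ldha_KO and 9.68 in Ldhb_KO) and Ccn1 (24.7 and 7.91) were higher too. On the other side, Junb was at 14.2 in Ldha_KO, 58.8 in Ldhb_KO, 48.4 in WT and 24.8 in SO. Ier3 was at 7.44, 61.9, 21.2 and 28.8, Egr1 at 47.6, 116, 68.1 and 25.9, and Zfp36, an mRNA decay factor, at 7.35, 19.4, 14.8 and 10.95.

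Feedback genes of LIF and FGF signalling included some of the largest differences. Of 24 LIF and Stat3 genes kept, 3 were lower and 1 higher, with a median of -0.18 (-0.08 after centring on GC content). Socs3, the feedback inhibitor of the LIF receptor, was at 16.0 in Ldha_KO, 125 in Ldhb_KO, 76.3 in WT and 66.9 in SO, so Ldha_KO was the outlying library. Gbx2, a homeobox target of Stat3, was at 4.16, 11.1, 27.7 and 6.85 in the same order, with WT above both knockouts. The signal transducer and the receptor subunits were close to level: Stat3 was at 40.9 in Ldha_KO and 44.8 in Ldhb_KO, Lifr at 12.5 and 14.2, and Il6st at 14.2 and 13.5. Gadd45g, a stress gene, was on the other side at 5.69 and 1.21.

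Of 19 FGF and ERK feedback genes kept, 4 were lower and 0 higher, with a median of -0.19 (-0.10 after centring on GC content); Ier3 and Egr1 count here as well. Spry4, an inhibitor of receptor tyrosine kinase signalling, was at 15.6 in Ldha_KO, 80.0 in Ldhb_KO, 111 in WT and 75.3 in SO. Fgf15 was at 3.67 in Ldha_KO, 12.4 in Ldhb_KO, 19.5 in WT and 8.22 in SO. Both genes were lowest in Ldha_KO and highest in WT. Spry2 had the same order of knockouts at 17.8 and 33.4, within 2-fold.

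Most pluripotency factors stayed within 2-fold, with 0 of 32 called higher and 2 called lower and a median of 0.08. Dppa3, a maternal factor that protects DNA methylation, was at 0.952 in Ldha_KO, 10.3 in Ldhb_KO, 4.03 in WT and 4.24 in SO. Tdgf1, the Nodal co-receptor Cripto, was at 505, 1056, 752 and 799.5 in the same order. For both genes WT and SO were close together and the knockouts fell on either side of them. Sox2 was at 204 in Ldha_KO, 389 in Ldhb_KO, 371 in WT and 344 in SO, a difference of -0.92. Nanog (591 and 424), Klf4 (193 and 142), Esrrb (219.9 and 248) and Zfp42 (526 and 500.5) differed by between -0.17 and 0.48. Fbxo15 (233 and 123) and Tbx3 (94.2 and 53.3) were toward Ldha_KO. Of 16 formative and primed genes kept, Foxd3 alone was called, at 13.0 in Ldha_KO, 5.54 in Ldhb_KO, 18.9 in WT and 17.0 in SO. Mycn was lower in Ldha_KO at 29.8, against 67.0 in Ldhb_KO, 64.5 in WT and 43.8 in SO, whereas Myc was nearly equal in the knockouts at 12.7 and 14.8.

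**Figure D4:**
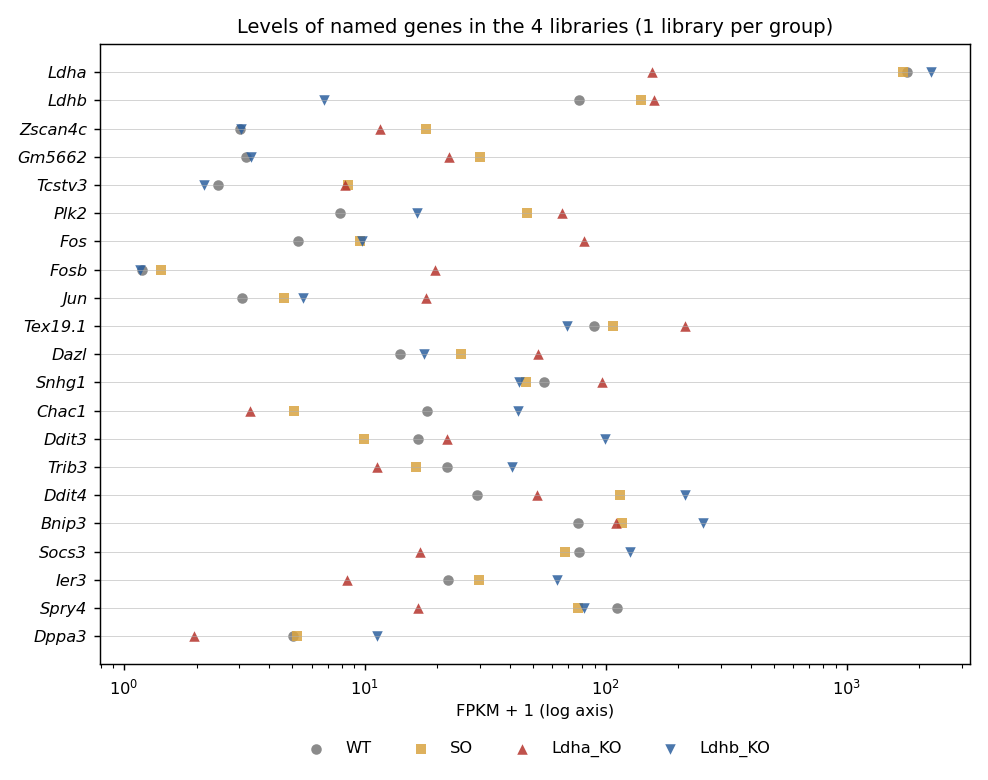
Level of 21 genes described in the text in each of the 4 libraries, as FPKM + 1 on a log axis, 1 point per library; groups had 1 library, so there are no error bars. Ldha_KO (triangle up) is the highest library for Fos, Fosb, Jun, Plk2, Tex19.1, Dazl and Snhg1, and Ldhb_KO (triangle down) is the highest for Chac1, Ddit3, Trib3, Ddit4, Bnip3, Socs3, Ier3 and Dppa3.

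Calls among germline genes went in 1 direction: of 38 kept, 8 were called higher and 0 lower, against 1.7% and 1.56% of all genes, with a median of 0.21 (0.17 after centring on GC content). Of the 35 that reached 1 in both knockouts, 6 were higher. Tex19.1, which restrains retrotransposons in germ cells, was at 212 in Ldha_KO, 67.9 in Ldhb_KO, 88.4 in WT and 106 in SO. Dazl, a germ cell translation factor, was at 51.1, 16.5, 13.0 and 24.0 in the same order. Tex19.2, the paralogue of Tex19.1, was at 12.3 in Ldha_KO, 2.13 in Ldhb_KO, 1.58 in WT and 5.72 in SO. All 3 were highest in Ldha_KO. Stra8, the retinoic acid target of meiotic entry, was at 31.0 in Ldha_KO and 14.8 in Ldhb_KO, both above 2.71 in WT. Asz1 (2.68 and 0.525), Magea5 (1.49 and 0.109), Dpep3 (3.47 and 1.19) and Xlr3c (13.6 and 3.53) made up the rest.

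Targets of p53 were shifted toward Ldha_KO, with 19 of 26 kept members above 0 and a median of 0.33 (0.38 after centring on GC content). Of these 26, 2 were called higher and 1 lower, beside 1.7% and 1.56% of all genes. Plk2, a stress-induced kinase, was at 64.5 in Ldha_KO, 15.4 in Ldhb_KO, 6.89 in WT and 45.9 in SO. Eda2r, a death receptor, was at 51.6, 18.0, 18.2 and 27.9 in the same order. Both were highest in Ldha_KO. Trp53inp1 (79.8 and 43.4), Ccng1 (171 and 97.7) and the cell cycle inhibitor Cdkn1a (129.6 and 84.4) were within 2-fold, and Gdf15, which the Atf4 list also holds, was the lower member. Among Nrf2 and glutathione genes 1 of 22 was called: Gclc, the catalytic subunit of glutathione synthesis, was at 61.1 in Ldha_KO, 26.2 in Ldhb_KO, 27.3 in WT and 33.2 in SO. In the unfolded protein response list of 19, Dnajb9, an ER co-chaperone, was higher (34.4 and 11.4) and Herpud1, which serves ER degradation, was lower (10.4 and 31.0). Of 12 heat shock genes 0 were called, and 11 lay above 0 with a median of 0.20.

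Host genes of small nucleolar RNAs leaned toward Ldha_KO. The list of stress RNAs and host genes had 3 of 10 called higher and 1 lower, with a median of 0.74, and among 15 kept genes of the Snhg family, gathered after the values were seen, 7 were higher and 0 lower. Snhg1 was at 95.4 in Ldha_KO, 42.5 in Ldhb_KO, 54.6 in WT and 45.8 in SO. Snhg3 was at 119.7, 51.6, 89.4 and 99.8 in the same order, and Snhg12 at 60.5, 26.2, 27.5 and 28.2. For each, Ldha_KO was the highest library and Ldhb_KO the lowest. Neat1, the RNA scaffold of paraspeckles, went the other way at 30.3 in Ldha_KO, 79.8 in Ldhb_KO, 55.9 in WT and 82.7 in SO. Mat2a, which makes S-adenosylmethionine, was at 272 in Ldha_KO, 105 in Ldhb_KO, 267 in WT and 264 in SO, so the departure lay in Ldhb_KO alone.

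Several metabolic and structural lists leaned toward Ldhb_KO. Over all genes 1.56% were called lower, so 0 calls or 1 in a list this short does not set it apart. Of 23 cholesterol synthesis genes 19 were below 0, with a median of -0.21 and 0 called; Msmo1, a sterol oxidase, was at 68.9 in Ldha_KO and 115 in Ldhb_KO. Fatty acid synthesis had a median of -0.25 (-0.16 after centring on GC content) and 1 of 14 called, the desaturase Scd1 at 22.0 and 46.2. Interferon and antigen presentation genes had a median of -0.28 (-0.20 after centring on GC content) and 0 of 21 called, with Bst2 at 57.2 and 106. Epithelial junction genes had 4 of 24 called lower and 0 higher, against 1.56% and 1.7% of all genes, with a median of -0.21. The claudin Cldn7 was at 8.50 in Ldha_KO, 28.8 in Ldhb_KO, 12.5 in WT and 9.08 in SO, and the splicing factor Esrp1 was at 7.41, 19.6, 14.2 and 9.56. Cldn9 (1.08 and 3.41) and Cldn6 (37.6 and 76.9) fell below 2-fold after centring on GC content, at -0.94 and -0.92, and Cldn6 also after rescaling to equal summed values (-0.99). Annexins and S100 partners had a median of -0.38 and 1 of 12 called, S100a6 at 41.9 and 90.8.

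Markers of other lineages gave calls in small numbers. The called shares of the trophectoderm, endoderm, imprinted and DNA methylation lists were nonetheless above 3.26%, the share over all genes. Of 18 trophectoderm genes kept, 2 were lower: Ascl2 was at 3.60 in Ldha_KO, 13.2 in Ldhb_KO, 6.77 in WT and 5.52 in SO, and Tfap2c at 11.5, 26.1, 9.80 and 12.0. In the endoderm list, with 1 higher and 1 lower of 14, the basement membrane gene Col4a1 was at 17.1 in Ldha_KO, 5.96 in Ldhb_KO, 6.67 in WT and 23.8 in SO. Imprinted genes had 2 called in each direction of 34 and a median of -0.00. H19 was at 6.37 in Ldha_KO and 28.7 in Ldhb_KO, above 1.65 in WT and 1.57 in SO, and Dio3 was at 2.51 and 0.439. Enzymes that write or remove lysine acylation, lactylation included, had 1 of 19 called: Sirt1, an NAD+-dependent deacylase, was at 62.4 in Ldha_KO, 28.0 in Ldhb_KO, 66.7 in WT and 50.4 in SO. Among genes of DNA methylation and demethylation 2 of 20 were called, Gadd45g (higher) and Gadd45a (lower, 22.1 and 67.5), and the DNA methyltransferases were not among them. BMP and Id genes (0 of 14, median 0.29) and Wnt targets (0 of 15, median 0.19) had no call. Cell cycle and replication genes (0 of 38 called, median 0.03) and ribosomal protein genes (0 of 36, median -0.06) had no call either, beside 3.26% of all genes.

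The X chromosome held 23 higher and 3 lower genes of 479 kept, shares of 4.8% and 0.626% beside 1.7% and 1.56% of all genes. Chromosome 12, which carries the Gm2016 family, followed with 16 higher of 447 (3.58%). The median over X genes was 0.08, and chromosome medians ranged from -0.12 on chromosome 15 to 0.08 on X. Ldha_KO was the highest of the 4 libraries for all 23 higher X genes, 16 of which were below 5 in WT. Of the 23, these passed the filter only through Ldha_KO: Magea5 (1.49 and 0.109), Erdr1 (8.53 and 0.832), Usp26, Tex13b, Luzp4, Gm773, AV320801, 1600025M17Rik, 3830403N18Rik and 4930550L24Rik. Such genes could be called only higher, so the share of 4.8% rests partly on them. Over all chromosomes, 156 of the 219 higher genes were at 1 or more in both knockouts. Among the most abundant, 1700013H16Rik was at 23.8 in Ldha_KO, 6.85 in Ldhb_KO, 2.55 in WT and 3.33 in SO. Xlr (5.11 and 1.12) and Xlr3c belong to a family of X-linked lymphocyte-regulated genes, of which 2 of 10 kept were called. Near-identical copies share reads in that family. The 3 lower X genes were Klhl13, an adaptor of a ubiquitin ligase, at 15.5 in Ldha_KO and 64.6 in Ldhb_KO, Glod5 at 5.76 and 23.1, and Fgf13 at 2.94 and 7.21.

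**Figure D5:**
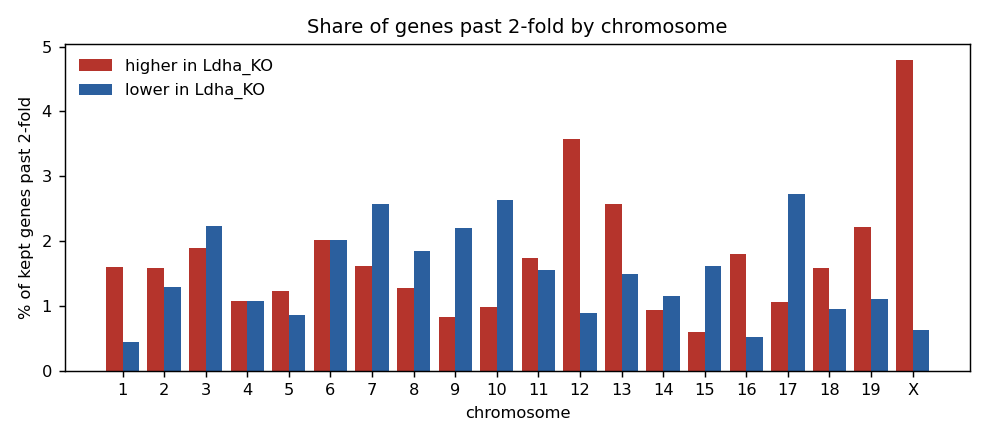
Percent of the kept genes of each chromosome that were higher or lower by 2-fold in Ldha_KO than in Ldhb_KO; the chromosome Y, with 6 kept genes, is left out. X has the tallest bar for higher genes (4.8%), followed by chromosome 12 (3.58%), and no chromosome has a share of lower genes above 2.73%. Genes kept only through Ldha_KO are included and could be called only higher.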

How the data were processed

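RNA sequencing values were used for 4 mouse embryonic stem cell libraries, 1 per group, grouped by their labels. The submitters' processing notes name mm9, edgeR 3.26.8, HTSeq 0.11.2, SAMtools 1.9 and Bowtie2 2.3.4.3, without saying what each was used for; the sources used here give no annotation. The deposited values, 1 per gene symbol, were made by the authors and read as FPKM from the values alone; they may equally be RPKM, and the number of reads per library is unknown. Not all values are whole fragments: 21 genes had a value above 0 and below 0.001 in either knockout.

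From these, log2(FPKM + 1) was taken with a pseudocount of 1, which understates differences of low genes, and Ldhb_KO was subtracted from Ldha_KO for genes at 1 or more in either (Python 3.11.15, pandas 2.3.3). A gene was called at a difference of 1. No test was possible with 1 library per group. The arithmetic of the calls was tested on simulated data without noise. The position of WT and SO was read against the midpoint of the knockouts on the same scale. Of 1100 entries in 48 gene lists, 1087 were found, 15 of them by synonym in RefSeq. GC content came from the longest GENCODE transcript (99.2% of kept genes had one), and chromosomes and promoters from RefSeq on GRCm38.p6; builds differ, so no coordinate of the files was used. The members and lists were chosen with earlier results of these data known. Genes named were Ldha, Ldhb, Ldhc, Ldhd, Hdac1, the 20 highest and 20 lowest with at least 5 in the higher library, in each list those past 2-fold and the 4 of largest difference, and core pluripotency, Zscan4, Dux, Tcstv and Zfp352 genes; 1700013H16Rik, 1700124L16Rik, Adm, Amd2, Asns, Atf4, Bsg, Ccng1, Ccnl1, Cdk12, Dancr, Dcn, Ddx3y, Dppa5a, Emb, Eno1, Fap, Fgf13, Grm2, Gt(ROSA)26Sor, H1f0, H1f1, H1f10, H1f2, H1f3, H1f6, Hccs, Hexim1, Il6st, Kdm3a, Lifr, Lum, Mepce, Mir17hg, Myc, Ndrg1, Obox6, P4ha1, Pfkp, Slc16a3, Slc38a2, Spry2, Stat3, Tbx3, Tha1, Tpi1, Vegfa and Xlr were named after their values were seen. H1f4 and the X genes Usp26, Tex13b, Luzp4, Gm773, AV320801, 1600025M17Rik, 3830403N18Rik and 4930550L24Rik were also named after their values were seen. Alternatives were a pseudocount of 0.1, no filter (any value above 0 in either knockout) or a filter of 5, rescaling to equal sums or to a median of 0, and GC centring.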

Additional observations from a re-analysis of the deposited data

Results flagged for a closer look

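In 4 genes the knockout libraries lay on opposite sides of WT, each by 2-fold or more on the log2(FPKM + 1) scale. The difference between the knockouts was not tested, since each had 1 library, and both were set against the same WT library. Ldhb, the target of one of the knockouts, was above WT in Ldha_KO and below it in Ldhb_KO, with a difference of 4.56 between them. The other 3 were below WT in Ldha_KO and above it in Ldhb_KO. Chac1, which degrades glutathione, had a difference of -3.70, with levels of 2.34 in Ldha_KO, 17.1 in WT and 42.4 in Ldhb_KO. Ier3, an immediate early gene, had a difference of -2.90, with levels of 7.44, 21.2 and 61.9 in that order. Dppa3 had a difference of -2.53, with levels of 0.952, 4.03 and 10.3.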

How the results depend on the processing

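The main counts were 219 higher and 202 lower. With a pseudocount of 0.1 they were 389 higher and 564 lower. With no filter they were again 219 and 202. That outcome was fixed in advance, since a gene below 1 in both knockouts cannot reach a difference of 1. The counts stayed within 1.5 times of the main counts with a filter of 5 (154 and 135), rescaling to equal sums (229 and 186), rescaling to a median of 0 (217 and 205) and centring on GC content (213 and 158), the last chosen after seeing the data. No called value changed sign, but this says little about stability. A pseudocount or filter cannot change a sign, and the rescaling factors were only 0.986 (equal sums) and 1.004 (median of 0). Of the list medians, the 2-cell-like genes moved by more than 0.2 with a pseudocount of 0.1 (2.13), with no filter (0.87) and with a filter of 5 (1.95), fibroblast and feeder markers with no filter (0.014) and mesoderm genes with a filter of 5 (0.71). Of the named genes, 16 more passed 2-fold with a pseudocount of 0.1. Rescaling to equal sums took 3 of them below 2-fold (Cldn6, Cth and Eno2) and Nqo1 past it. Centring on GC content took 8 below it, Cxcl10 (0.99), Zdbf2 (0.997) and BB287469 (0.92) among them, and Wnt6 past it. No paired analysis was possible because each group had 1 library, and no library could be left out for the same reason. Values below 1 rest on few fragments, so the level of genes such as Dux and Tcstv1 could not be compared at this depth.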

Other observations

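Some single genes stood out by size. Mid1, a ubiquitin ligase gene at the pseudoautosomal boundary of the mouse X, was at 65.7 in Ldha_KO, 5.95 in Ldhb_KO, 37.0 in WT and 38.3 in SO, a difference of 3.26. Erdr1, annotated in the same region, was at 8.53, 0.832, 5.08 and 4.85 in that order. Ldhb_KO was the low library for both, and of the 7 nearest kept neighbours of Mid1 only Erdr1 passed 2-fold, with Hccs at 28.9 in Ldha_KO and 14.8 in Ldhb_KO. 2210409E12Rik, a transcribed pseudogene on chromosome 11, had the same pattern, at 30.0 in Ldha_KO, 3.73 in Ldhb_KO, 20.3 in WT and 18.3 in SO, and none of its 10 neighbours passed 2-fold (-0.26 to 0.55). Gt(ROSA)26Sor, the noncoding transcript of a locus often used for transgenes, was at 24.5, 6.11, 9.42 and 10.3, highest in Ldha_KO. Osr2, a zinc finger factor, was at 9.66 in Ldha_KO, 0.145 in Ldhb_KO, 0 in WT and 0.138 in SO. Amd1, a polyamine synthesis gene with the near-identical copy Amd2, was at 8.31 in Ldhb_KO and 0.0276 in each of the other 3 libraries, while Amd2 was at 38.4 in Ldhb_KO and 46.7 in Ldha_KO, so the value of either copy is uncertain. Kdm5d on the Y chromosome was at 3.27 in Ldha_KO and 0.688 in Ldhb_KO, while Ddx3y was at 25.96 and 22.4.

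A few linker histone genes and regulators of transcription are given as single genes, picked after their values were seen. H1f0, a linker histone of slowly dividing cells, was at 119 in Ldha_KO, 334 in Ldhb_KO, 98.5 in WT and 91.4 in SO. H1f10 was at 113, 229, 91.2 and 74.2 in the same order, so for both Ldhb_KO stood above the other libraries. The other linker histone genes did not share this size. Apart from H1f2 they were at low levels, with H1f3 at 2.36 in Ldha_KO and 1.53 in Ldhb_KO, which limits the comparison. H1f1, H1f2, H1f3 and H1f5 had differences of 0.12 to 0.61, toward Ldha_KO and within 2-fold, with H1f2 at 64.1 in Ldha_KO and 59.0 in Ldhb_KO. H1f1 and H1f5 were at 0.888 and 0.402 in Ldhb_KO and passed the filter only through Ldha_KO. Higher in Ldhb_KO were H1f6, at 0.481 in Ldha_KO and 1.21 in Ldhb_KO, and H1f4, at 0.437 and 0.961, which the filter left out. Hexim1 and Mepce, which hold the elongation factor P-TEFb inactive on 7SK RNA, were at 56.9 and 35.9 in Ldha_KO and at 24.3 and 17.1 in Ldhb_KO. Cdk12, an elongation kinase, was at 32.2 in Ldha_KO, 11.8 in Ldhb_KO, 23.5 in WT and 16.4 in SO, and the cyclin Ccnl1 was at 56.7, 17.3, 31.7 and 24.0. Ldhb_KO was the lowest of the 4 libraries for these 4 regulators.

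Long noncoding RNAs passed 2-fold more often than protein-coding genes in both directions. Of 349 kept, 24 were higher (6.88%) and 16 lower (4.58%), beside 180 (1.45%) and 184 (1.49%) of 12387 protein-coding genes. Of 95 transcribed pseudogenes kept, 8 were higher (8.42%) and 0 lower. Calls also varied with transcript length, over 5 equal groups of genes. In the shortest group 3.24% were higher and 3.55% lower, and in the longest 1.13% and 0.351%. The gene classes were not matched for length. Mir17hg, the host of a microRNA cluster, was at 38.1 in Ldha_KO, 10.9 in Ldhb_KO, 24.6 in WT and 16.3 in SO, and Dancr was at 70.0, 21.4, 38.03 and 30.2.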
